A study of Mus musculus with 10 samples.

Results

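Proliferating lymphatic endothelial cells (LECs) were 80 of the 1921 LECs in 2 droplet (10x) single-cell libraries of mouse ear skin, which together hold 9016 deposited barcodes. Barcodes with fewer than 500 genes, or with mitochondrial UMIs above 10%, were left out, where a UMI marks 1 captured RNA molecule. It was taken as a LEC with at least 2 UMIs of *Prox1*, the transcription factor that sets lymphatic identity, and at most 1 UMI of *Flt1*, a receptor of blood endothelium. A LEC was called proliferating where the UMIs of *Mki67*, *Top2a*, *Birc5*, *Cenpa*, *Ube2c*, and *Cdk1* added up to at least 6. This 6-gene sum chose the cells, so the level of these genes in them describes the rule and is no finding.

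Both droplet libraries came from WT C57Bl/6j mice, labelled male, with an age label of P1 to P21. Mice of 1 library received an Ang2-blocking antibody (Ang2 Ab) and those of the other mouse IgG1, each at 20 mg/kg every few days from P16 to P21. The titles of both samples carry the word control, so which library is Ang2 Ab was taken from the treatment label, and the direction of each ratio rests on it. The paper that reported the data describes higher *Angpt2* and *Lyve1* and lower *Nrp2* transcripts with the antibody. Their ratios of Ang2 Ab over IgG were here 7.11, 1.54, and 0.473 in LECs with a 6-gene sum of 0. In proliferating LECs they were 6.40, 1.12, and 1.34. None of these values was used to assign the libraries. Live cells were sorted on CD31, a surface protein of all endothelium, and the number of mice behind a library is not given in the sources used here. Each treatment has 1 library, so no difference between treatments could be tested, and every interval given covers counting error alone. Single LECs were also sequenced on 8 Smart-seq plates, sorted on Podoplanin and CD31 from mice that all received 4-OHT in a window labelled P1 to P5. The plates hold 2 each of *Tie1* fl/fl mice without Cre, *Tie1* fl/fl;*Tie2* fl/fl mice without Cre, *Prox1*CreERT2;*Tie1* fl/fl mice, and *Prox1*CreERT2;*Tie1* fl/fl;*Tie2* fl/fl mice, and *Prox1*CreERT2 directs recombination to cells that express *Prox1*. On these plates, proliferating wells were taken by the same 6 genes.

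Growth of lymphatic vessels depends on division of LECs, which is driven by VEGF-C acting through its receptor VEGFR3 (*Flt4*) and is modulated by angiopoietin 2 (Ang2, *Angpt2*) and the Tie receptors. A dividing cell first copies its DNA in S phase, with the MCM helicase, DNA polymerases, and enzymes of nucleotide synthesis, and then separates the chromosomes in mitosis, with cyclin-dependent kinases, kinetochores, and spindle motors. Genes of S phase are largely switched on by E2F factors and those of mitosis later by complexes that bind CHR and CCAAT elements.

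The IgG library held 4685 barcodes with 42337184 UMIs in all, of which 3438 were kept, and the Ang2 Ab library held 4331 barcodes with 31720670 UMIs, of which 2963 were kept. The libraries shared 5 barcodes, 2 of them among the kept ones. Although both are labelled male, LECs with *Xist* UMIs and no Y-linked UMI (*Ddx3y*, *Eif2s3y*, *Uty*, *Kdm5d*) made up 656 of 1229 LECs with IgG and 273 of 692 with Ang2 Ab, so each library holds cells of both sexes. The shares are therefore given for all LECs and within these classes. LECs with *Xist* and a Y-linked gene together, as a pair of cells in 1 droplet can give, were 8.33% of the proliferating and 5.23% of the sum-0 LECs with IgG, and 5.0% and 2.71% with Ang2 Ab.

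Dividing LECs were found in both libraries and were a smaller share of LECs after Ang2 Ab. With IgG, 60 of 1229 LECs, or 4.88% (3.75% to 6.24%, exact Clopper-Pearson 95% interval), were proliferating. With Ang2 Ab, 20 of 692 LECs, or 2.89% (1.77% to 4.43%), met the same rule, a ratio of 0.592 (0.360 to 0.974). The lower share was seen in LECs with a Y-linked UMI and no *Xist* UMI, where 25 of 444 LECs (5.63%) were proliferating with IgG and 6 of 345 (1.74%) with Ang2 Ab, a ratio of 0.309 (0.128 to 0.745). In LECs with *Xist* and no Y-linked UMI the shares were 4.12% (27 of 656) and 4.76% (13 of 273), and the ratio of 1.16 (0.606 to 2.21) lay on the other side of 1. Blood endothelial cells, taken as kept barcodes with at least 2 *Flt1* UMIs and no *Prox1* UMI, passed the 6-gene rule in 11 of 1229 cells (0.895%) with IgG and in 14 of 1286 (1.09%) with Ang2 Ab.

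**Figure D1:**
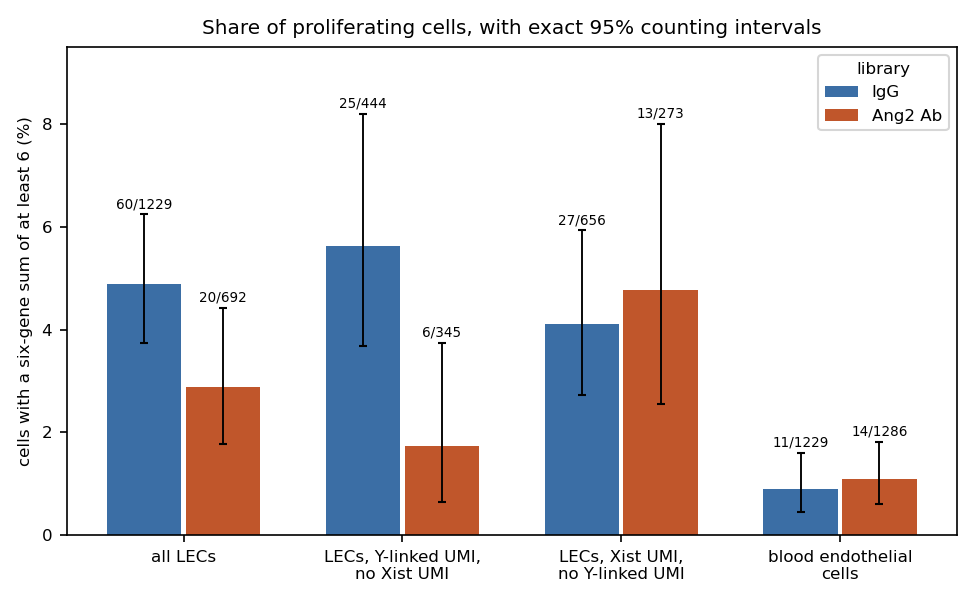
Percent of cells with a 6-gene sum of at least 6 (y axis) in each library, for all LECs, for LECs split by *Xist* and Y-linked UMIs, and for blood endothelial cells. Bars give the share, whiskers the exact 95% counting interval, and labels the cells counted. The Ang2 Ab bar is below the IgG bar for all LECs (2.89% and 4.88%) and is not below it in LECs with *Xist* and no Y-linked UMI (4.76% and 4.12%).

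By the rule, the 6-gene sum splits members from the other LECs. It had a median of 39 (6 to 307) in the IgG members and of 48 (6 to 205) in the Ang2 Ab members. The sum was 0 in 917 IgG and 516 Ang2 Ab LECs and lay between 1 and 5 in 252 and 156. Just inside the threshold, at a sum of 6 or 7, were 7 IgG and 3 Ang2 Ab cells, and just outside, at 4 or 5, were 9 and 5. *Mki67*, which marks chromatin of cycling cells, had a UMI in 54 of 60 and in 20 of 20 members, and *Top2a*, the topoisomerase that untangles sister chromatids, in 55 of 60 and 17 of 20. *Birc5*, a subunit of the chromosomal passenger complex, had a UMI in 51 of 60 and in 19 of 20.

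Members also held more UMIs. The median UMI count was 23033.5 in the IgG members and 28775 in the Ang2 Ab members, against 11648 and 10803.5 in LECs with a sum of 0. Median detected genes were 5301.5 and 5837.5, against 3648 and 3519.5. After each cell was thinned to 5000 UMIs, which left out 2 IgG members and 57 and 46 sum-0 LECs, the median was 2243.5 and 2276.5 genes in members and 2188 and 2197 in sum-0 LECs, so most of the gap in detected genes went with the UMI count. Among the 5% of LECs with the most UMIs were 22 of the 60 IgG and 11 of the 20 Ang2 Ab members. No doublet caller was run, and the part of doublets in the UMI counts of members was not tested. Mitochondrial UMIs were a slightly smaller percentage of the total in members (medians 3.38% and 4.10%) than in sum-0 LECs (4.71% and 5.02%).

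Members were spread over the cycle. Replication lists (licensing and fork, nucleotide synthesis, S phase regulators) and mitotic lists (kinases and cyclins, kinetochore, anaphase) were summed per cell without the rule genes. With IgG, a member had a median of 173.5 replication UMIs (7 to 585) and of 120.5 mitotic UMIs (17 to 570). With Ang2 Ab, the medians were 105 (8 to 541) and 136.5 (17 to 461). A sum-0 LEC had medians of 13 and 8 with IgG and of 12 and 7 with Ang2 Ab. Replication UMIs outnumbered mitotic ones in 33 of 60 IgG members (55.0%) and in 10 of 20 Ang2 Ab members (50%), and after thinning to 5000 UMIs in 33 of 58 (56.9%) and 9 of 20 (45.0%).

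Each member was then placed against the sum-0 LECs of its own library, by the 95th percentile of the summed CPM (a gene's UMIs scaled to 1000000 UMIs in all). With IgG, 43 of 60 members were above it on both sets of lists, 14 on the mitotic lists alone, 2 on the replication lists alone, and 1 on neither. With Ang2 Ab, 10 of 20 were above on both, 7 on the mitotic lists alone, 0 on the replication lists alone, and 3 on neither. The 3 cells above on neither had 6-gene sums of 7 to 13 and 19163 to 43187 UMIs. A replication level of at least 5000 CPM was reached by 38 of 60 IgG members (63.3%, 49.9% to 75.4%) and by 8 of 20 Ang2 Ab members (40.0%, 19.1% to 63.9%), whose intervals overlap. The same level was found in 16 of 1169 and 9 of 672 LECs that were not members, where the 6 rule genes added up to 5 at most. Sum-0 LECs went down to 1079 UMIs with IgG and 779 with Ang2 Ab, and in such cells few replication UMIs reach this level. It was not limited to them. Among LECs with at least 5000 UMIs, thinned to 5000, sum-0 LECs held up to 38 replication UMIs with IgG and 59 with Ang2 Ab. Some cells with high replication levels are thus part of the comparison class.

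**Figure D2:**
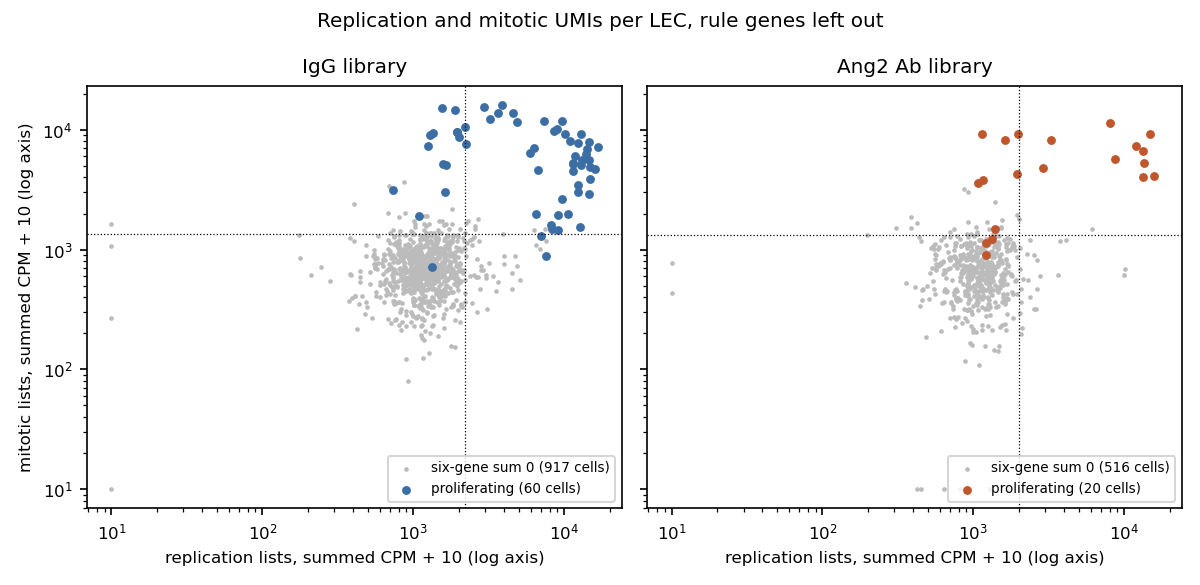
Summed CPM + 10 of the replication lists (x axis, log scale) and of the mitotic lists (y axis, log scale) in single LECs of each library, with proliferating LECs in color over sum-0 LECs in gray. Dotted lines mark the 95th percentile of sum-0 LECs. Beyond both lines lie 43 of 60 IgG and 10 of 20 Ang2 Ab members, and 1 IgG and 3 Ang2 Ab members lie beyond neither.

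UMIs were next summed over members and over sum-0 LECs and compared within each library as CPM. The member pools held 1492488 UMIs with IgG and 590528 with Ang2 Ab, and the sum-0 pools 11382646 and 6071249. The members were chosen by genes of the same cells, so these ratios are a description without a test. Of 10215 genes with at least 100 UMIs, 469 were at least 2-fold higher in members in both libraries (4.59% of genes compared) and 509 at least 2-fold lower in both (4.98%). The list counts below stand beside these shares, and a count of none in a short list is near them. The median log2 ratio of all compared genes was -0.09 with IgG and -0.03 with Ang2 Ab. Of the 469 genes, 151 belong to the 8 cell cycle lists, which hold 188 genes apart from the rule genes, 169 of them with enough UMIs. Cell cycle genes reached 100 UMIs mainly through the members, where they are high, so their counts are no support for the lists. The summed level of each list, which needs no such minimum, is given beside them.

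Genes of DNA replication were higher in the members. Of 31 licensing and fork genes that passed the minimum (35 listed), 29 were at least 2-fold higher in both libraries, and the whole list summed to 3442 CPM in members and 509 CPM in sum-0 LECs with IgG, and to 2339 and 430 CPM with Ang2 Ab. *Mcm5*, a subunit of the MCM helicase, was at 152 CPM against 7.29 CPM with IgG, a ratio of 20.9 (16.2 to 27.2), and at 91.4 against 2.64 CPM with Ang2 Ab, a ratio of 34.7 (19.6 to 65.0). *Pcna*, the sliding clamp of DNA polymerases, was at 414 against 82.8 CPM and at 342 against 71.8 CPM. Its ratios of 5.00 and 4.76 were smaller than those of *Mcm5*, and its level in sum-0 LECs was higher.

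The nucleotide synthesis list summed to 2032 against 371 CPM with IgG and to 1443 against 352 CPM with Ang2 Ab. Of its 15 genes with enough UMIs, 10 were at least 2-fold higher in both libraries and none was 2-fold lower in both. *Rrm2*, the inducible subunit of ribonucleotide reductase, was at 247 against 1.76 CPM with IgG and at 164 against 1.48 CPM with Ang2 Ab. *Tk1*, thymidine kinase, was among the 12 highest genes, at 224 against 0.527 CPM and at 157 against 0.329 CPM. The smallest ratios among these 15 were those of *Ctps*, CTP synthase, at 1.21 (0.912 to 1.59) and 0.927 (0.570 to 1.44), and of *Paics*, of purine synthesis, at 1.72 and 1.33, while *Cad*, of pyrimidine synthesis, was at 2.54 and 3.21.

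E2F activators and S phase regulators summed to 2820 against 440.1 CPM and to 2064 against 412 CPM, with 23 of 27 genes at least 2-fold higher in both libraries. *Ccna2*, cyclin A, which acts in S phase and at mitotic entry, had 318 UMIs in IgG members against 5 in the far larger sum-0 pool (213 against 0.439 CPM), and with Ang2 Ab 117 against 2 (198 against 0.329 CPM). *Ccne1*, the cyclin that drives entry into S phase, was at 43.6 against 0.351 CPM and at 32.2 against 0.494 CPM. *Uhrf1*, which carries DNA methylation through replication, was at ratios of 74.3 (46.2 to 126) and 53.3 (27.7 to 113).

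Histone genes of the replication-dependent clusters, whose mRNA is mostly made while DNA is copied, summed over all 66 in the matrix to 5418 against 409 CPM with IgG and to 4655 against 488 CPM with Ang2 Ab. Of 21 with at least 100 UMIs, 15 were at least 2-fold higher in both libraries and none was at least 2-fold lower in both. *Hist1h1b*, a linker histone, was at 679 against 1.05 CPM with IgG and at 586 against 2.14 CPM with Ang2 Ab. *Hist1h3c* had the largest ratio of all genes by the rule used for naming, with 334 UMIs against 1 and 81 against 1, in 30 of 60 and in 8 of 20 members. *Hist1h1c* (ratios 1.35 and 0.989) and *Hist1h2bc* (1.20 and 1.28), by contrast, were near the level of sum-0 LECs. Near-identical histone copies share sequence, so the level of a single copy is uncertain, and most of these mRNAs lack the poly(A) tail that droplet libraries capture.

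Genes of mitosis were higher in the members as well. All 16 mitotic kinase and cyclin genes that passed the minimum (20 listed) were at least 2-fold higher in both libraries, and the list summed to 2120 against 70.3 CPM with IgG and to 1864 against 53.7 CPM with Ang2 Ab. *Aurkb*, the kinase of the chromosomal passenger complex, had 213 UMIs against 3 and 71 against 3, or 143 against 0.264 CPM and 120 against 0.494 CPM. *Ccnb2*, a B-type cyclin, was at 280 against 1.32 CPM with IgG, while with Ang2 Ab it had 290 CPM in members and no UMI in 516 sum-0 LECs. *Plk1*, which acts in spindle assembly and mitotic exit, was at 83.1 against 0.527 CPM and at 72.8 CPM against no UMI.

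The kinetochore list summed to 3156 against 237 CPM with IgG and to 2628 against 222 CPM with Ang2 Ab, and the spindle and cytokinesis list to 10661 against 1444 CPM and to 8042 against 1420.5 CPM. Of the genes with enough UMIs, 19 of 20 and 27 of 27 were at least 2-fold higher in both. *Cenpf*, an outer kinetochore protein, was at 685 against 4.39 CPM and at 618 against 2.80 CPM. *Cdca8*, borealin of the chromosomal passenger complex, was at 226 against 0.527 CPM and at 218 against 0.659 CPM. *Kif4*, a motor that acts on chromosomes and the central spindle, had 119 UMIs against 1 and 43 against 1. *Nusap1*, which stabilizes spindle microtubules, had no UMI in Ang2 Ab sum-0 LECs and was at least 404-fold higher in members there, taking 3 UMIs in the pool as the floor, while the exact interval, which also counts error in the members, starts at 324. *Hmmr*, another spindle factor, was likewise at least 247-fold higher, with an interval from 196. *Cep55*, needed for the last cut between daughter cells, was at 80.4 against 0.176 CPM and at 66.0 against 0.165 CPM.

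Chromosome compaction and chromatin genes summed to 13513 against 2451 CPM and to 11495 against 2354 CPM, with 24 of 26 at least 2-fold higher in both. *Hmgb2*, a chromatin protein of dividing cells, was at 1731 against 98.5 CPM with IgG and at 1172 against 86.0 CPM with Ang2 Ab. *Cdca2*, which brings a phosphatase to chromosomes as mitosis ends, was at 62.3 against 0.264 CPM and at 47.4 against 0.165 CPM. The anaphase list summed to 1419.8 against 406 CPM and to 1197 against 371 CPM, with 3 of 7 genes past 2-fold in both. *Cdc20*, the mitotic activator of the anaphase-promoting complex, was at ratios of 48.7 (36.3 to 66.6) and 66.8 (39.3 to 121), whereas *Pttg1*, securin, was at 1.21 (0.944 to 1.54) and 1.12 (0.734 to 1.64).

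Among regulators of the decision to divide, none of 8 G1 cyclin and kinase genes passed 2-fold in both libraries. That is near the share of all 10215 genes compared (4.59% higher and 4.98% lower). *Ccnd3*, cyclin D3, was at ratios of 2.16 (1.74 to 2.66) and 1.11 (0.702 to 1.68). *Ccnd1*, cyclin D1, was at 295 against 220 CPM with IgG and at 166 against 132 CPM with Ang2 Ab. *Cdk4*, its partner kinase, was at ratios of 1.91 (1.71 to 2.14) and 1.79 (1.48 to 2.15). *Ccnd2*, cyclin D2, was at 0.617 (0.509 to 0.742) with IgG and 1.65 (1.36 to 1.98) with Ang2 Ab, and *Cdk6* was at 0.517 (0.389 to 0.675) and 1.06 (0.762 to 1.43). Among 16 inhibitor genes with enough UMIs, 3 were higher and 5 lower in both libraries, beside 4.59% and 4.98% of all genes compared. *Cdkn2c* and *Cdkn2d*, inhibitors of CDK4 and CDK6, were higher at ratios of 7.23 and 8.22 and of 7.29 and 4.87, as was *Rbl1* (p107, an E2F partner made in S phase) at 14.4 and 8.74. *Cdkn1c*, or p57, was lower at 0.380 (0.256 to 0.545) and 0.270 (0.134 to 0.488). The antiproliferative factors *Btg1* and *Btg2* were also lower, at ratios of 0.444 and 0.403 and of 0.448 and 0.473.

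**Figure D3:**
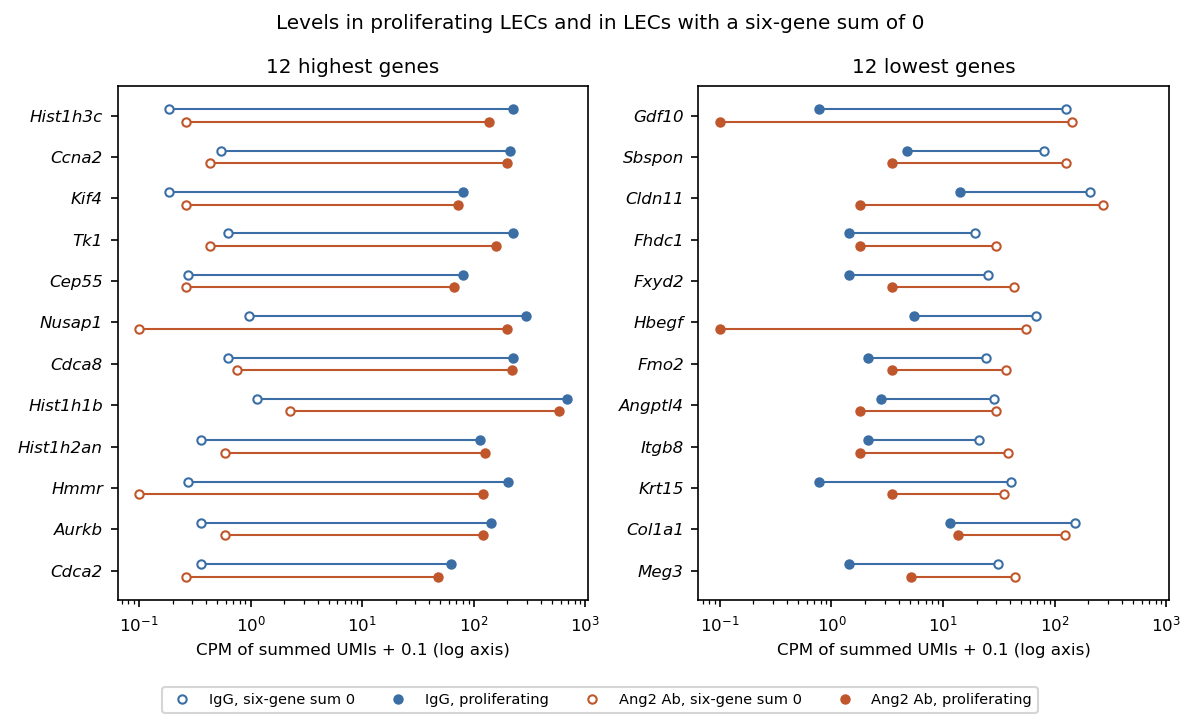
CPM of summed UMIs + 0.1 (x axis, log scale) of the 12 highest and the 12 lowest genes in proliferating LECs (filled) and in LECs with a 6-gene sum of 0 (open), in each library. In the left panel the filled circles lie near 50 to 700 CPM and the open ones at about 2 CPM or below, and in the right panel the order is turned in both libraries.

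Promoters of 3 rule genes, of *Hmmr*, and of *Mcm6* are shown as examples of the motifs that time S phase and mitosis. Windows of 250 bases upstream of the RefSeq start (GRCm38.p6) were searched on both strands for the CCAAT box (CCAAT), for the CHR (TTTGAA or else TTTAAA or else TTCGAA), and for an E2F site (TTTCGCGC, TTTGGCGC, TTTCCCGC, or TTTGCCGC). The sequences below run 5′ to 3′ toward the gene, end before any annotated base of it, and carry the matches in capitals, with a match to the other strand appearing as its reverse complement.
Cdk1 promoter, chr10:69352939-69353162 (- strand): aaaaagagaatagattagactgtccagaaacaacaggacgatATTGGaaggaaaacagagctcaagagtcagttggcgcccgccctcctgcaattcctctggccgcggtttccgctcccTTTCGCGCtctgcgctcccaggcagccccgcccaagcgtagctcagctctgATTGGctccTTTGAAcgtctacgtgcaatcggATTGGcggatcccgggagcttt
Top2a promoter, chr11:99024200-99024439 (- strand): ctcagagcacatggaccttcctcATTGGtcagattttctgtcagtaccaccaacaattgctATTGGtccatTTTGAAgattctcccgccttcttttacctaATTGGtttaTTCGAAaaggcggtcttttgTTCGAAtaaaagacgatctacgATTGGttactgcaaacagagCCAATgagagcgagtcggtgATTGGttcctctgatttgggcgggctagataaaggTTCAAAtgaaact
Mki67 promoter, chr7:135716451-135716629 (- strand): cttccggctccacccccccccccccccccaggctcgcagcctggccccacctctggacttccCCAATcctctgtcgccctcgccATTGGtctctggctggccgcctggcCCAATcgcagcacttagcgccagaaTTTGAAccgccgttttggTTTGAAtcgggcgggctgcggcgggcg
Hmmr promoter, chr11:40733465-40733687 (- strand): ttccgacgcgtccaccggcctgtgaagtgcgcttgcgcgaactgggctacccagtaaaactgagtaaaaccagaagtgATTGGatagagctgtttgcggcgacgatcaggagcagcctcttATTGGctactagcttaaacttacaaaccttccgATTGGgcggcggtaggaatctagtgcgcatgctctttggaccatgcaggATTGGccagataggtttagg
Mcm6 promoter, chr1:128359706-128359955 (- strand): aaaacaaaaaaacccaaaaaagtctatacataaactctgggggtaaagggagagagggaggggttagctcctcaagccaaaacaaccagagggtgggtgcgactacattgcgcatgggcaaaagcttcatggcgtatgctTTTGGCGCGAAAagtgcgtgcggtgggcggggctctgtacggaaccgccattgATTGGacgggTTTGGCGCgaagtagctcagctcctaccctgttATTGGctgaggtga

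In the printed stretches, which are shorter than the window where annotated bases of a gene were left out, *Cdk1* held 3 CCAAT boxes, 1 CHR, and 1 E2F site, *Top2a* 6 CCAAT boxes and 4 CHR matches, and *Mki67* 3 CCAAT boxes and 2 CHR matches. *Hmmr* held 4 CCAAT boxes and no match to the others in the stretch printed, and *Mcm6*, of the replication fork, 2 CCAAT boxes and 3 E2F matches, of which 2 overlap. The shares use the whole window of 250 bases and are not to be set against the printed counts. Among all 27025 genes with a promoter in the table, 37.5% had a CCAAT box, 29.3% a CHR match, and 2.16% an E2F match in the window. Of 66 replication genes with a promoter there, 60.6% had a CCAAT box, 25.8% a CHR match, and 25.8% an E2F match. Of 42 genes of the mitotic kinase, kinetochore, and anaphase lists, 69.0%, 33.3%, and 4.76% had them. Among the 8104 compared genes with a promoter, the same 3 shares were 40.6%, 21.5%, and 4.20%, so the E2F share of the mitotic lists was near that level. A CHR match was found in 50% of 26 spindle genes, in 68.2% of 22 chromatin genes, in 43.8% of 16 mitotic kinase and cyclin genes, and in 22.2% of 18 kinetochore genes, against 29.3% of all genes and 21.5% of the 8104 compared genes with a promoter. These matches describe letters in a window and not binding.

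Valve and collector genes were low in the members. The valve list (*Gdf10*, *Gjd3*, *Cldn11*, *Slc41a1*, *Neo1*) summed to 127 CPM in members and 775 CPM in sum-0 LECs with IgG, and to 105 and 1364 CPM with Ang2 Ab. *Gdf10*, a secreted TGF-β family factor (chr14:33923587-33936514), had 1 UMI in the IgG members and 1434 in sum-0 LECs, a ratio of 0.00532 (0.000135 to 0.0297), and none against 874 with Ang2 Ab, at least 28.3-fold lower against the floor of 3 UMIs, with an exact upper limit of the ratio at 0.0435. *Cldn11*, a tight junction claudin (chr3:31149920-31164326), was at 14.1 against 208 CPM and at 1.69 against 273 CPM. At 5000 UMIs a cell, *Cldn11* was detected in 3 of 58 members (5.17%, 1.08% to 14.4%) and 27.2% of sum-0 LECs with IgG, and in 0 of 20 members (an upper limit of 16.8%) and 31.5% of sum-0 LECs with Ang2 Ab. Blood endothelial cells, which should lack it, had it in 1.89% of IgG cells at the same depth. *Gdf10* had no UMI in any member at that depth, against 23.5% and 24.7% of sum-0 LECs. A secreted growth factor, *Hbegf*, was also among the 12 lowest genes, at 5.36 against 68.3 CPM with IgG and at least 11.0-fold lower against the same floor with Ang2 Ab (upper limit of the ratio 0.113), where no member had a UMI.

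LECs with a sum of 1 to 5 did not share the low valve level with IgG. The valve list was at 978 CPM at a sum of 1, at 1071 at a sum of 2, and at 1413 at sums of 3 to 5, and then at 37.7 CPM in the 9 cells with sums of 6 to 11 and at 137 CPM in the 51 cells with 12 or more. With Ang2 Ab it was at 543, 1860, and 579 CPM, and then at 22.8 CPM in 4 cells and at 119 CPM in 16.

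The collector list summed to ratios of 0.470 and 0.442, with 4 of 7 genes at least 2-fold lower in both libraries. *Procr*, the protein C receptor, was at ratios of 0.367 (0.285 to 0.464) and 0.286 (0.141 to 0.517). Capillary markers were at summed ratios of 1.16 and 1.01, with none of 7 genes past 2-fold in both, and *Lyve1* held most of the sum. *Reln*, the secreted protein reelin, was at ratios of 0.757 (0.694 to 0.825) and 0.850 (0.760 to 0.949), and *Slco2b1*, an organic anion transporter, at 0.468 (0.326 to 0.652) and 0.810 (0.535 to 1.18). *Lyve1*, the hyaluronan receptor of capillary LECs, was at 2304 against 1713 CPM with IgG and at 2589 against 2635 CPM with Ang2 Ab. At 5000 UMIs a cell it was detected in 51 of 58 members (87.9%) and 64.2% of sum-0 LECs with IgG, and in 19 of 20 (95%) and 61.9% with Ang2 Ab, against 5.34% of IgG blood endothelial cells.

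The cells carried the markers of LECs, as their label says. The identity list of 12 genes summed to ratios of 0.809 and 0.851, with 0 of 11 genes past 2-fold in either direction in both. *Flt4*, VEGFR3, was at 596 against 583 CPM and at 740 against 527 CPM. *Prox1*, which the rule used, was at 551 against 1184 CPM and at 674 against 1396 CPM. Lymphatic transcription factors were at summed ratios of 0.498 and 0.371. *Foxc2*, which is needed for valves, was at ratios of 0.303 (0.223 to 0.403) and 0.272 (0.151 to 0.452). The flow-responsive factors *Klf2* and *Klf4* were at 0.451 and 0.215 and at 0.449 and 0.279. Immediate early genes, which tissue dissociation induces, were low in the same cells, at summed ratios of 0.553 and 0.495 with *Fos* as the most abundant, and their part in the level of *Klf2*, *Klf4*, and *Btg2* was not tested.

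Genes of the pathway under study were expressed in the dividing cells. Of the angiopoietin and Tie list (*Angpt1*, *Angpt2*, *Tie1*, *Tek*, *Ptprb*), 0 of 4 genes with enough UMIs passed 2-fold in both libraries, and the summed ratio was 0.604 with IgG and 0.662 with Ang2 Ab. *Tie1* was at 286 against 425 CPM and at 279 against 444 CPM, ratios of 0.674 (0.609 to 0.744) and 0.629 (0.534 to 0.737). *Tek*, which encodes Tie2, was at 66.3 against 130 CPM and at 38.9 against 86.1 CPM. *Ptprb*, the phosphatase VE-PTP that acts on Tie receptors, was at 95.1 against 228 CPM and at 139 against 244 CPM. The intervals of these 3 genes lay below 1 in both libraries.

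The VEGF-C and VEGFR3 list was at summed ratios of 0.990 and 1.60. *Nrp2*, the coreceptor for VEGF-C, was at 498 against 403 CPM with IgG, a ratio of 1.24 (1.14 to 1.33), and at 667 against 191 CPM with Ang2 Ab, a ratio of 3.50 (3.11 to 3.93). The ligand *Vegfc* had 1 UMI in each pool of members. PI3K, Akt, and FoxO genes were at summed ratios of 0.958 and 0.947 with 0 of 12 past 2-fold in both, and *Foxo1*, which Akt keeps out of the nucleus, was at ratios of 0.516 (0.427 to 0.619) and 0.587 (0.443 to 0.763). Glycolysis genes summed to 1.51 and 1.49 times the sum-0 level. *Gapdh* was at ratios of 2.32 and 2.52 and *Pgk1* at 2.37 and 2.48, and *Aldoa* was at 0.625 and 0.547. Interferon response genes were at 0.549 and 0.583 on few UMIs, 121 and 31 over 6 genes in the members. The pan-endothelial list was at 0.657 and 0.658, with *Cldn5*, the endothelial claudin, at 0.431 and 0.432.

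Leukocyte, mural, fibroblast, and keratinocyte markers were lower in members than in sum-0 LECs, and blood endothelial and erythrocyte markers were nearer to their level. Leukocyte markers had 8 UMIs over all IgG members and 4 over all Ang2 Ab members, with *Ptprc* at 0 in both, *Cd74* most abundant with IgG (3.35 CPM), and *Laptm5* most abundant with Ang2 Ab (6.77 CPM). Mural markers summed to 14.7 CPM against 57.8 CPM in sum-0 LECs and to 16.9 against 285 CPM, with *Rgs5* most abundant. Fibroblast markers, led by *Col3a1*, summed to 78.4 against 482 CPM and to 132 against 424 CPM, and *Col1a1*, among the 12 lowest genes, was at 11.4 against 153 CPM and at 13.5 against 123 CPM. Keratinocyte markers summed to 10.1 against 64.0 CPM and to 5.08 against 40.4 CPM. Erythrocyte markers, led by *Hbb-bs*, summed to 109 against 143 CPM and to 71.1 against 106 CPM. Blood endothelial markers were at 373 against 474 CPM and at 435 against 422 CPM, with *Aqp1*, a water channel that LECs also express, the most abundant and at least 2-fold higher in both (ratios 2.27 and 2.52).

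The other genes among the 12 lowest were *Sbspon*, *Fhdc1*, *Fxyd2*, *Fmo2*, *Angptl4*, *Itgb8*, *Krt15*, and *Meg3*. They were detected in 1 to 6 IgG members and in 1 or 2 Ang2 Ab members each. *Sbspon*, an extracellular protein gene, was at 4.69 against 79.7 CPM with IgG and at 3.39 against 127 CPM with Ang2 Ab. *Angptl4*, an inhibitor of lipoprotein lipase, was at 2.68 against 28.6 CPM and at 1.69 against 29.6 CPM.

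On the Smart-seq plates, which are other samples than those of the 10x rule, LEC wells with at least 500 CPM over the same 6 genes were set against wells with 0 reads of them. The plates gave 6 to 33 proliferating wells (1.60% to 8.92% of LEC wells) and 40 to 219 resting wells each. The wells were chosen by the same 6 genes, so a higher level of other cell cycle genes in them is no independent evidence. All 12 genes highest in the droplet libraries were higher in proliferating wells in every plate that gave a value, but only 6 of them gave values in 8 plates, and *Hist1h2an* in 2. Of the 12 lowest genes, 4 were lower in every plate that gave a value and 7 were lower in at least 7 plates. *Gdf10* was lower in 8 of 8 plates (log2 ratio -7.73 to -1.16, median -3.47), *Cldn11* in 7 of 8 (-5.25 to 0.07), and *Angptl4* in only 5 of 8 (-5.55 to 1.20).

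The summed valve list was lower in 8 of 8 plates (log2 -3.75 to -0.66) and the angiopoietin and Tie list in 8 of 8 (-0.70 to -0.13). The collector list was lower in 7 (-1.35 to 0.12) and the capillary list in 6 (-0.67 to 0.48). Mitotic kinases and cyclins were higher in 8 of 8 (4.99 to 6.29). The licensing and fork list was higher in 7 of 8 (-0.08 to 2.35). *Gapdh* was higher in 8 of 8 (0.32 to 0.97), but the glycolysis list was higher in 4 and lower in 4 (-0.29 to 0.28), unlike its level in the droplet libraries. The cell cycle inhibitors also differed, being higher in 5 plates and lower in 3, although *Btg2* was lower in 8 of 8 (-1.43 to -0.36). *Angpt2* was lower in 7 of 8 plates (-3.21 to 0.35), as were *Tie1* (-1.74 to 0.17) and *Ptprb* (-5.00 to 0.22). *Tek* was higher in 4 and lower in 4 (-2.80 to 1.27), unlike its level in the droplet libraries. The 8 plates include those of mice with *Prox1*CreERT2, which deletes *Tie1*, or both *Tie1* and *Tek*, in LECs. Plates without Cre were not counted apart, and the part of deletion in the values of *Tie1*, *Tek*, and their list was not tested. In 2 plates, both labelled female (*Tie1* fl/fl without Cre and *Prox1*CreERT2;*Tie1* fl/fl, number 1 of each), only 52 and 40 wells were resting. Without them the valve and the angiopoietin and Tie lists were lower in 6 of 6.

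**Figure D4:**
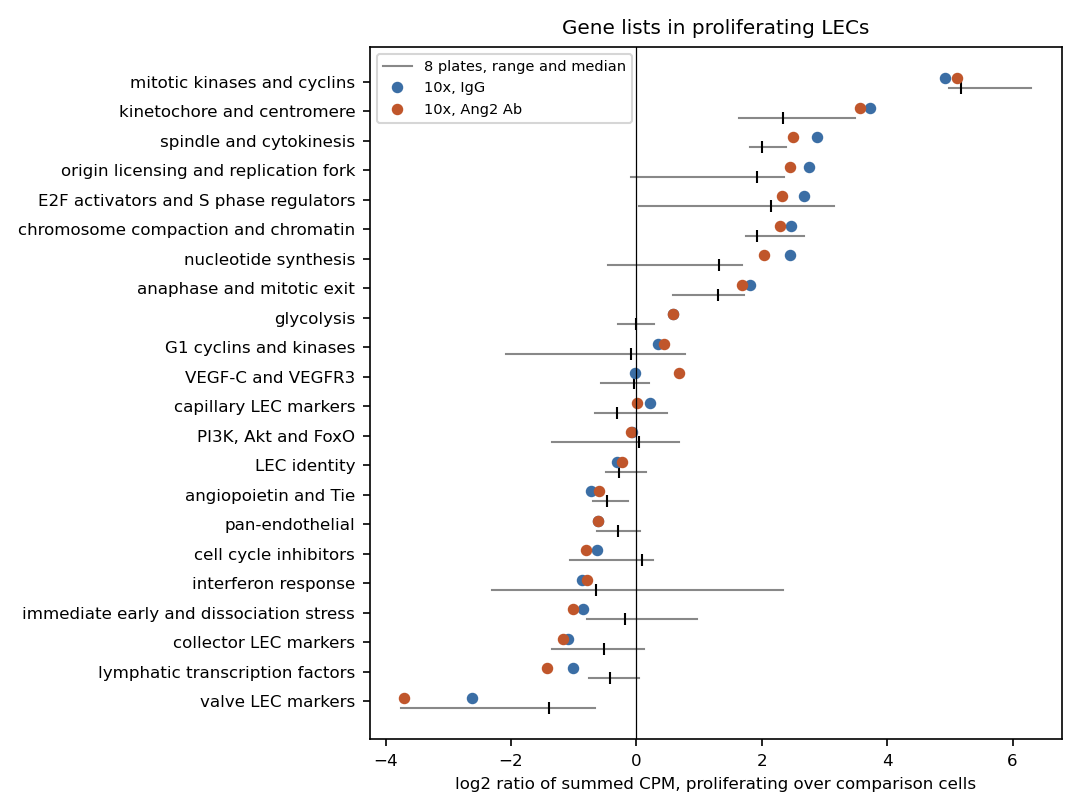
Log2 ratio of the summed CPM in proliferating over comparison cells (x axis) of the cell cycle, endothelial, and signaling lists, without the markers of other cell types. Circles show the 10x libraries against sum-0 LECs, and gray lines with a tick the range and median of the 8 plates against resting wells. The circles of the replication and mitosis lists lie to the right of 0 and those of the valve list farthest to the left among the lists drawn (ratios 0.163 and 0.0770), and the plate range of the valve list stays below 0.

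Within the proliferating LECs, the gene with the largest ratio of Ang2 Ab over IgG among those with at least 100 UMIs and an interval on 1 side of 1 was *Angpt2*, the gene of the blocked ligand. *Angpt2* (chr8:18690263-18741562) was at 102 CPM in IgG members (152 UMIs, in 35 of 60 cells) and at 652 CPM in Ang2 Ab members (385 UMIs, in 18 of 20 cells), a ratio of 6.40 (5.29 to 7.78). In sum-0 LECs it was at 127 and 902 CPM, a ratio of 7.11 (6.71 to 7.54), so the higher level was shared by these LECs. Of 3738 genes with at least 100 UMIs, 65 were at least 2-fold higher with Ang2 Ab (1.74% of genes compared) and 84 at least 2-fold lower (2.25%). In sum-0 LECs the same rule gave 105 higher (1.06%) and 85 lower (0.861%) of 9874. With 20 cells in a pool, 1 cell can carry much of a gene.

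Among the genes highest with Ang2 Ab in members, *Mrc1*, a scavenger receptor found on LECs, was at 81.1 CPM with IgG (30 cells) and at 374 CPM with Ang2 Ab (14 cells), a ratio of 4.62 (3.68 to 5.81), against 1.25 (1.07 to 1.46) in sum-0 LECs. *Mmp14*, a membrane-bound metalloproteinase, was at 141 and 437 CPM in 50 and 19 cells, a ratio of 3.11 (2.58 to 3.74) against 1.07 (0.987 to 1.15). *Myo18a*, a myosin family member, was at 3.25 (2.20 to 4.82) against 1.08 (0.941 to 1.25). For these 3 genes the intervals in members and in sum-0 LECs did not overlap, but they leave out the spread between cells. In Ang2 Ab members, 1 cell held 19.9% of the UMIs of *Mrc1*, 22.1% of *Mmp14*, and 19.0% of *Myo18a*. The genes were also picked as the highest of this comparison. Fibroblast markers summed to a ratio of 1.68 (1.25 to 2.26) in the same members, against 0.879 (0.839 to 0.922) in sum-0 LECs, and their part in *Mmp14* and *Tnc* was not tested.

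*Scn3a*, a sodium channel subunit, was at 322 and 1126 CPM, and its ratio of 3.49 (3.10 to 3.94) was close to that of 3.46 (3.33 to 3.60) in sum-0 LECs. In Ang2 Ab members, 28.1% of its UMIs were in 1 cell. *Tnc*, a matrix glycoprotein, was at 50.9 and 235 CPM (ratio 4.62 against 2.97), with 32.4% of its Ang2 Ab UMIs in 1 cell, and without the 5% of LECs with the most UMIs its ratio was 1.51. *Pcdh17*, a protocadherin, was at 4.79 against 1.98 (3.11 without members near the sum-0 LECs on both sets of lists), and *Mgll*, a lipase, at 4.47 against 2.29. *Pcdh17* had UMIs in 10 Ang2 Ab members, with 33.0% of them in 1 cell.

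Among the 10 genes lowest with Ang2 Ab, *Pdgfa*, a ligand for mural and mesenchymal cells, was at 68.3 CPM with IgG (102 UMIs in 33 cells) and at 5.08 CPM with Ang2 Ab (3 UMIs in 3 cells), a ratio of 0.0743 (0.0151 to 0.223), against 0.641 (0.585 to 0.702) in sum-0 LECs. *Ptn*, pleiotrophin, was at 415 and 50.8 CPM (620 and 30 UMIs), a ratio of 0.122 (0.0818 to 0.176) against 0.517. *Gas6*, a ligand of TAM receptors, was at 153 and 32.2 CPM in 51 and 12 cells, a ratio of 0.210 (0.124 to 0.335) against 0.629.

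*Itgb4*, an integrin subunit for laminin, was at 75.7 and 13.5 CPM, a ratio of 0.179 (0.0754 to 0.365), while it was level in sum-0 LECs at 0.985. *Gja4*, the connexin of valves and collectors, was at 0.178 (0.0835 to 0.337) against 0.659, with 38.7% of its IgG UMIs in 1 cell. *Cthrc1*, *Pglyrp1*, *Igfbp5*, and *Rbp7* were at ratios of 0.140, 0.184, 0.123, and 0.142, against 0.741, 0.417, 0.210, and 0.220 in sum-0 LECs. *Igfbp5* had UMIs in 2 and *Rbp7* in 4 Ang2 Ab members. Without the 5% of LECs with the most UMIs, genes of this group stayed lower by less, with *Pdgfa* at 0.225, *Ptn* at 0.238, *Igfbp5* at 0.245, *Pglyrp1* at 0.315, *Cthrc1* at 0.356, and *Itgb4* at 0.359, and *Gja4* was at 0.302 when CPM were averaged per cell. *Hspb1*, a heat shock protein, was at 0.143 (0.0808 to 0.237) against 1.23, but 73.8% of its IgG UMIs came from 1 cell, and in members with *Xist* and no Y-linked UMI its ratio was 1.29.

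**Figure D5:**
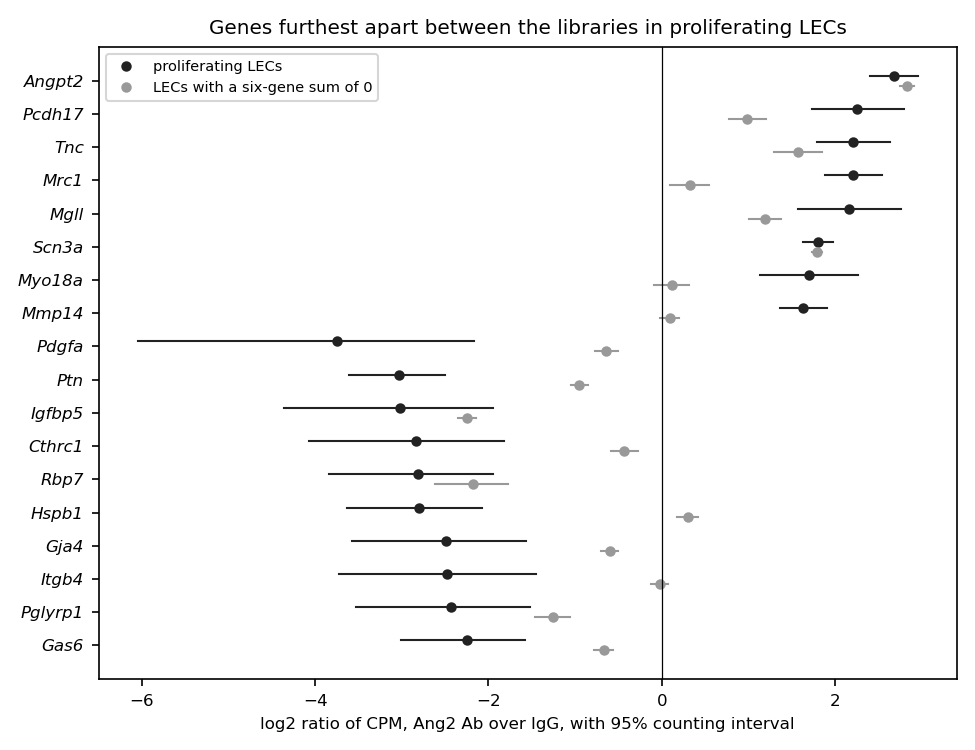
Log2 ratio of CPM, Ang2 Ab over IgG (x axis), of 8 of the 10 highest and of the 10 lowest genes in proliferating LECs, in members (black) and in LECs with a 6-gene sum of 0 (gray), with 95% counting intervals. *Angpt2* and *Scn3a* have similar ratios in both classes (6.40 and 7.11, 3.49 and 3.46), and *Mrc1*, *Mmp14*, *Pdgfa*, and *Itgb4* are near 1 or much closer to it in sum-0 LECs.

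Summed replication and mitosis lists were lower with Ang2 Ab within the members. The licensing and fork list summed to a ratio of 0.679 (0.640 to 0.721), nucleotide synthesis to 0.710 (0.657 to 0.766), and S phase regulators to 0.732 (0.686 to 0.780), while mitotic kinases and cyclins were at 0.879 (0.820 to 0.942), kinetochore genes at 0.833 (0.786 to 0.882), chromatin genes at 0.851 (0.827 to 0.874), and anaphase genes at 0.843 (0.773 to 0.919). Spindle and cytokinesis genes, at 0.754 (0.730 to 0.779), had an interval that overlapped that of S phase regulators. In sum-0 LECs, licensing and fork genes were at 0.844 (0.806 to 0.884) and mitotic kinases and cyclins at 0.764 (0.670 to 0.870), so for these lists lower levels were not limited to members. S phase regulator, kinetochore, chromatin, and anaphase genes were at 0.936, 0.934, 0.960, and 0.914 there, with intervals below 1. Nucleotide synthesis, at 0.951 (0.902 to 1.002), and spindle and cytokinesis genes, at 0.984 (0.958 to 1.01), had intervals in sum-0 LECs that took in 1. Of 24 licensing and fork genes with enough UMIs, 4 were at least 2-fold lower and none higher, with a median log2 ratio of -0.60 against -0.03 over all genes compared. Of 14 mitotic kinase and cyclin genes, 1 was 2-fold lower, with a median of -0.14. Over all 3738 genes compared, 2.25% were at least 2-fold lower and 1.74% at least 2-fold higher. *Mcm5* was at 152 and 91.4 CPM, a ratio of 0.601 (0.438 to 0.812), and *Cdc6*, the loader of the helicase, at 0.497 (0.244 to 0.933). *Ccnb2*, in contrast, was at 280 and 290 CPM, a ratio of 1.03 (0.860 to 1.24). The mix of cells differed along with these levels, with 38 of 60 and 8 of 20 members at or above 5000 replication CPM. Members above the 95th percentile of sum-0 LECs on neither set of lists were 1 of 60 with IgG and 3 of 20 with Ang2 Ab. Their UMIs are part of these sums, and their part in the lower ratios, also of the mitotic lists, was not tested.

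Of the lists outside the cell cycle, the angiopoietin and Tie list was higher with Ang2 Ab, at 2.02 (1.82 to 2.24) in members and 1.84 (1.79 to 1.90) in sum-0 LECs, with *Tie1* at 0.977 and *Tek* at 0.587 in members beside *Angpt2* at 6.40. Collector markers were lower in both classes, at 0.571 (0.483 to 0.671) and 0.606 (0.585 to 0.627), and capillary markers higher, at 1.21 (1.15 to 1.26) and 1.39 (1.37 to 1.42). Valve markers were at a ratio of 1.76 (1.71 to 1.81) in sum-0 LECs and of 0.829 (0.612 to 1.11) in members, on 62 Ang2 Ab UMIs. The VEGF-C and VEGFR3 list went in opposite directions, at 1.24 (1.15 to 1.33) in members and 0.765 (0.745 to 0.786) in sum-0 LECs. Its gene *Nrp2* was at 1.34 (1.18 to 1.52) and 0.473 (0.443 to 0.504). Among D-type cyclins, *Ccnd2* was at 2.69 in members and 1.01 in sum-0 LECs, and *Ccnd1* at 0.562 and 0.601. *Klf2* was at 0.331 in members and 0.693 in sum-0 LECs, together with immediate early genes at 0.632 (0.606 to 0.660) and 0.706 (0.699 to 0.713), and the part of dissociation in these levels was not tested.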

How the data were processed

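The droplet matrices the authors deposited hold UMI counts of each barcode, written by Cell Ranger 6.0.2 per the file headers, while the submitters' processing notes name Cell Ranger 2.1.1; the build is GRCm38 (mm10). The deposited plate tables hold read counts of each well, and the notes list TopHat2 2.1.1 and featureCounts without saying for which files. Nothing had been normalized.

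Here, UMIs were summed per library and class and scaled to CPM. Shares have exact Clopper-Pearson and ratios exact binomial intervals (95%), and the ratio of 2 shares a log-normal one. All cover counting error only, since 1 library per treatment leaves no test. Pools at 0 were given a floor of 3 UMIs. Genes with at least 100 UMIs were compared, leaving out the rule genes, *Prox1*, *Flt1*, mitochondrial genes, *Xist*, and Y-linked genes, and a 2-fold ratio was counted. Named are the 12 highest and 12 lowest genes by the less extreme library ratio (10 and 10 for Ang2 Ab) with intervals on 1 side of 1, and list genes as examples; 2 of the 10 highest genes for Ang2 Ab are not reported here. Thinning drew UMIs without replacement to 5000. The code was tested on simulated data. Members, gene lists, and rules were chosen with earlier results of these data known, and list examples after their values were seen. On plates, LEC wells had at least 1000 genes, at most 10% mitochondrial reads, at least 2 *Prox1* reads, and fewer *Flt1* than *Prox1* reads. Python 3.11.15, numpy 2.4.6, scipy 1.17.1, and pandas 2.3.3 were used.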

Additional observations from a re-analysis of the deposited data

Results flagged for a closer look

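The ratio of proliferating shares, Ang2 Ab over IgG, went in opposite directions in 2 classes of LECs: it was 0.309 (0.128 to 0.745) in LECs with a Y-linked UMI and no *Xist* UMI and 1.16 (0.606 to 2.21) in LECs with *Xist* and no Y-linked UMI. With 1 library per treatment the difference between the classes was not tested.

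Barcodes left out for more than 10% mitochondrial UMIs entered no comparison. Of those with at least 500 genes, at least 2 *Prox1* UMIs, and at most 1 *Flt1* UMI, 8 of 174 (4.60%) with IgG and 8 of 162 (4.94%) with Ang2 Ab had a 6-gene sum of at least 6, which shows that such cells were found there and no more; a count of 0 would allow up to 1.72% and 1.85%.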

How the results depend on the processing

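Of 84 alternative values of 14 results, 58 stayed within the counting interval or within 1.5 times the main count. The IgG share of proliferating LECs was 6.53% at a limit of 5% mitochondrial UMIs, 3.69% after thinning each LEC to 5000 UMIs, and 3.26% without the 5% of LECs with the most UMIs, where the Ang2 Ab share was 1.37%. The Ang2 Ab share was 1.74% in LECs with a Y-linked UMI and no *Xist* UMI (ratio to IgG 0.309) and 4.76% in LECs with *Xist* and no Y-linked UMI, where the ratio turned to 1.16; the cause was not tested. The other 9 settings kept the ratio below 1 and inside its interval. Thinned to 5000 UMIs, members and sum-0 LECs gave 216 higher (2.79%) and 280 lower (3.62%) of 7738 genes; thinning removes UMIs and evens out depth at once, and the cause was not tested. Between Ang2 Ab and IgG members, a minimum of 50 UMIs gave 149 higher and 181 lower genes, a minimum of 200 gave 26 and 34, and a limit of 5% mitochondrial UMIs 32 and 54. There were 32 higher genes without the 5% of LECs with the most UMIs, 35 without members near the sum-0 LECs on both sets of lists, and 37 in members with *Xist* and no Y-linked UMI. In sum-0 LECs, a minimum of 50 UMIs gave 180 higher and 129 lower genes and a minimum of 200 gave 66 and 48. *Angpt2* was higher in Ang2 Ab members in every alternative run, at a ratio of 3.68 without the 5% of LECs with the most UMIs, 8.23 at the limit of 5% mitochondrial UMIs, and 8.24 in members with *Xist* and no Y-linked UMI. Leaving out members near the sum-0 LECs, the *Xist* class, the 2 other minimums in sum-0 LECs, and leaving out 2 plates were added after the data were seen. No paired analysis was possible because each treatment has 1 droplet library, which holds for the comparison of treatments alone. The plate groups, which share replicate numbers, were not compared with each other. Proliferating and resting wells form a pair within each plate, but they were only set side by side there. A paired test over the plates was not run. Small pools limit precision: among the genes named for Ang2 Ab against IgG, 1 cell carried up to 73.8% of the IgG UMIs and 71.4% of the Ang2 Ab UMIs, and the UMIs of *Fmo2* among members came from 1 cell in each library.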
